A study of Mus musculus with 60 samples.

Results

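The genes of fatty acid synthesis described here numbered 9 of the 20018 gene symbols on the array, were read by 15 of its 55681 probes, and were followed in lung, liver and forestomach of 20 mice. They were chosen by symbol, through the RefSeq accession of each probe, a rule that uses no measured value, though the genes were picked with earlier results of these data known. The mice were male Muta Mouse, a transgenic strain that carries a bacterial lacZ reporter in every group, about 10 weeks old at the start. They were gavaged for 28 days with benzo(ghi)perylene (BghiP), a polycyclic aromatic hydrocarbon, in olive oil. The doses were 0 (vehicle, D0), 6.25 (D1), 12.5 (D2) and 25 (D3) mg/kg-bw/day, with 5 mice in each group, and tissues were collected 72 h after the last dose. RNA came from a random slice of each organ, so every tissue holds a mixture of cell types. Each array set Cy5-labelled RNA of 1 tissue of 1 mouse against Cy3-labelled universal mouse reference RNA, and all levels are log2 Cy5/Cy3 ratios. Levels of 1 gene can therefore be compared between mice and tissues, but levels of different genes cannot. In bulk tissue, fewer cells of a type and less RNA per cell cannot be told apart.

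Fatty acid synthesis turns citrate from the mitochondria into palmitate in the cytosol. ATP citrate lyase (Acly) releases acetyl-CoA, malic enzyme (Me1) supplies NADPH, acetyl-CoA carboxylase (Acaca) makes malonyl-CoA and fatty acid synthase (Fasn) builds the chain, which Elovl6 elongates and stearoyl-CoA desaturase (Scd1) desaturates. Srebf1 encodes SREBP-1, the transcription factor that switches these enzymes on after feeding and in response to insulin. Thrsp (Spot 14) is a small nuclear protein of lipogenic tissues, and Pnpla3 is a lipid droplet protein that SREBP-1 also induces. Liver and adipose tissue are the main lipogenic organs of the mouse, and alveolar type 2 cells of the lung make fatty acids for surfactant.

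Promoter sequence was available for 8 of the 9 genes. Those of 4 are shown because results below turn on them: Fasn and Acly for their joint variation in liver, Thrsp for its relation to fat cell markers and Srebf1 for its dose slope in liver. Each is the 250 bases before a RefSeq transcription start in build GRCm38.p6, written 5′ to 3′ on the gene's strand, with matches to the motifs searched in capitals. Srebf1 has several starts, of which the one farthest downstream is shown.
Fasn (chr11:120824548-120824797, minus strand): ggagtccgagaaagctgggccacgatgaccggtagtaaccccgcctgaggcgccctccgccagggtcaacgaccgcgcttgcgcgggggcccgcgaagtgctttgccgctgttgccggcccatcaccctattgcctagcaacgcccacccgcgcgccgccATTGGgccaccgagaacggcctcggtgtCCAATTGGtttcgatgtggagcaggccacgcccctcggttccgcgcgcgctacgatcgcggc
Acly (chr11:100528001-100528250, minus strand): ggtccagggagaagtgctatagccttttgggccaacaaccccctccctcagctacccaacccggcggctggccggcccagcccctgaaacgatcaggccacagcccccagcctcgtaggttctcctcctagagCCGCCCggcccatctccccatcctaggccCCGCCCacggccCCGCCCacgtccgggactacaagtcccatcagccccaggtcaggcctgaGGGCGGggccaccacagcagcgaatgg
Thrsp (chr7:97417551-97417800, minus strand): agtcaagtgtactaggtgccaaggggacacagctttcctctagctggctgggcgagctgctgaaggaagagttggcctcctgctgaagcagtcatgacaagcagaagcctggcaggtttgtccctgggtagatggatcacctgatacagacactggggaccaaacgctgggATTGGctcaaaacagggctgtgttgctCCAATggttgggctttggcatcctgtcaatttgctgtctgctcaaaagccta
Srebf1 (chr11:60210472-60210721, minus strand): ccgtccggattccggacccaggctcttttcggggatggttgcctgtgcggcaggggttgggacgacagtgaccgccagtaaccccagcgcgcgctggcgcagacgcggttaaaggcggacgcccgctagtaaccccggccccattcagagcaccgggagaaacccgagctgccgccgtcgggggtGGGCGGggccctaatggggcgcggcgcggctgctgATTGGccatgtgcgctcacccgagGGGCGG

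The motif search on both strands covered CCAAT (the NF-Y box), GGGCGG (the GC box bound by Sp1), CACGTG (an E-box), CACCCCAC (a sterol regulatory element core) and TATAAA (the TATA box). In Fasn the capitals mark CCAAT at 3 places between 90 and 55 bases before the start, and 2 of these overlap on opposite strands. Thrsp had CCAAT at 2 places, between 79 and 48 bases before the start. Acly had no CCAAT but 4 GC boxes. The Srebf1 start shown had 2 GC boxes and 1 CCAAT. Of all 32851 promoter windows of this length, 33.8% held CCAAT, 32.7% the GC box, 6.02% CACGTG, 2.58% CACCCCAC and 12.4% TATAAA. No member window held CACGTG, CACCCCAC or TATAAA, which says only that these letters are not in these windows.

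All 9 genes were measured in each tissue by their brightest probe, but not equally well. Scd1, Acaca, Acly, Me1, Elovl6 and Thrsp stood well above background on at least 19 of 20 arrays of every tissue. Fasn was well above background on 14 and Srebf1 on 15 of the 20 forestomach arrays, and on 20 in lung and liver. Pnpla3 was the dimmest member, well above background on 5 lung, 13 liver and 14 forestomach arrays. Between 21.3% and 58.6% of all probes were well above background per array.

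Some samples held RNA of other cell types. The lung of D0 mouse 1 had a mean log2 ratio of 4.55 over 8 skeletal muscle markers and 3.46 over 8 squamous epithelium markers, against at most 0.16 and 0.08 in the other lungs. The lung of D3 mouse 20 had hepatocyte markers at 4.28, against at most 0.73 elsewhere in lung. In forestomach the glandular stomach markers ranged from 0.22 to 7.63 and the hepatocyte markers from -0.02 to 4.74, and alveolar type 2 cell markers stood at 2.79 in D0 mouse 2 against at most 0.10 in the rest. Lung and forestomach arrays shared 5 slides, each with every dose, while the liver arrays lay on 3 other slides, so liver and slide cannot be told apart. Each dose kept its own position on the slides, so position and dose cannot be told apart either.

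The first comparison asked where the genes were expressed in vehicle mice. Most members were highest in liver. Against lung, 8 of 9 were called (limma, Benjamini-Hochberg adjusted p of 0.05 or less and a difference of at least 1.5-fold), all lower in lung, and only Pnpla3 was not. Of all 33255 probes tested, 44.4% were called between lung and liver, 19.0% as lower in lung. Against forestomach, 7 of 9 members were called in liver, 5 higher and 2 lower, beside 39.2% of all probes. Lung and forestomach differed in 4 members, beside 33.3% of all probes.

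The regulator Srebf1 stood at 3.16, 3.17, 3.35, 3.51 and 2.96 in the livers of the 5 vehicle mice, at 0.31, 0.96, 0.88, 0.98 and 1.20 in lung, and at 0.38, 0.62, 0.11, 0.41 and 1.09 in forestomach. Every liver lay above every lung and forestomach. Liver was higher than lung by 2.36 ± 0.18 (log2 difference ± SE, 5.14-fold, limma adjusted p = 2.43e-17) and higher than forestomach by 2.71 ± 0.18 (6.53-fold, adjusted p = 1.51e-19). Lung and forestomach overlapped, with a difference of 0.34 ± 0.18 (adjusted p = 0.0955).

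Fasn, the synthase itself, followed the same order. It read 3.80, 2.97, 3.86, 3.82 and 4.29 in liver, 0.99, 1.61, 0.73, 2.03 and 1.73 in lung, and 0.15, 0.21, 0.41, 0.47 and 2.29 in forestomach. The liver values again lay apart from the others, 5.02-fold above lung (adjusted p = 1.45e-08) and 8.24-fold above forestomach (adjusted p = 1.03e-11), where 3 of the 5 arrays were well above background. The forestomach of D0 mouse 5 lay above all 5 lungs, and the other forestomachs lay below them. Between lung and forestomach the difference of 0.71 ± 0.33 missed the threshold (adjusted p = 0.0621). It passed with slide as a block (adjusted p = 0.0371) and without mouse 5 (1.03, adjusted p = 0.00746).

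The enzymes that feed the synthase differed less. Acaca was 1.53-fold higher in liver than in lung (adjusted p = 0.0283), just past the fold threshold. This call was lost in the deposited log2 ratios (lung minus liver -0.38, adjusted p = 0.167) and without mouse 5 (-0.39, adjusted p = 0.199), and it was under the fold threshold with normexp background correction (-0.58, adjusted p = 0.0373). Without mouse 1 or 4 it was lost at a value of -0.61 or -0.62 (adjusted p = 0.0601 and 0.0523), against -0.61 in all mice. A further Acaca probe gave a 2.26-fold difference, which was called. The liver and forestomach levels of Acaca overlapped (log2 difference 0.38 ± 0.25, adjusted p = 0.189), whereas the same further probe gave a called difference of 0.79 ± 0.19 (1.73-fold). Acly was 2.11-fold higher in liver than in lung (adjusted p = 3.4e-05) and 1.67-fold higher than in forestomach (adjusted p = 0.00387), and the second of these was lost without mouse 4 (adjusted p = 0.0508) and in the deposited log2 ratios (0.55, under the fold threshold).

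Me1, the NADPH source, had its highest level in forestomach, at 2.34, 2.12, 2.17, 2.55 and 2.73. In liver it read 1.95, 0.99, 1.37, 2.15 and 2.59, and in lung 1.01, 0.58, 0.40, 0.91 and 0.51. Forestomach and lung did not overlap, and the difference was 3.24-fold (adjusted p = 3.9e-10). Forestomach was above liver by 0.57 ± 0.20 (adjusted p = 0.0127), just under the fold threshold, and it was called without mouse 1, 4 or 5 (0.62, 0.61 and 0.68). For liver minus forestomach it was also called in the deposited log2 ratios (-0.84, adjusted p = 9.1e-05), with processed signals (-0.82) and with normexp background correction (-0.62). The other Me1 probes gave smaller values for liver minus forestomach, -0.30 ± 0.23 (adjusted p = 0.259) and -0.17 ± 0.20 (adjusted p = 0.507), which were not called. A further Me1 probe placed lung 2.24 ± 0.20 below liver on the log2 scale, where the main probe gave 1.12 ± 0.20, with both called.

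Scd1, the desaturase, separated all 3 tissues. Liver was 22.6-fold above forestomach (adjusted p = 1.94e-13) and 3.41-fold above lung (adjusted p = 0.000296), and lung was 6.62-fold above forestomach (adjusted p = 3.64e-07). The vehicle livers read 4.13 to 5.76, the lungs 2.71 to 3.79 and the forestomachs -0.60 to 2.15, with no overlap.

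Elovl6, the elongase, was highest in forestomach and lowest in lung. Its vehicle levels were 3.91, 1.94, 2.37, 3.84 and 4.43 in forestomach, 1.72, 1.36, 2.12, 2.14 and 2.25 in liver, and -0.65, -1.97, -1.91, -1.97 and -2.50 in lung. Lung did not overlap with either tissue, 34.2-fold below forestomach (adjusted p = 5.76e-15) and 13.1-fold below liver (adjusted p = 4.5e-11). Forestomach exceeded liver 2.60-fold (adjusted p = 0.00427), with overlapping groups. The highest lung value was that of mouse 1, whose lung held the muscle and squamous markers.

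Pnpla3 was also highest in forestomach, at 2.62, 0.46, 0.29, 2.41 and 4.42 in the vehicle mice. It was 3.54-fold above lung (adjusted p = 0.00167) and 2.84-fold above liver (adjusted p = 0.00783). Without mouse 5, lung minus forestomach was -1.21, against -1.82 with it, and was still called. The groups overlapped in both cases, and only 1 lung, 3 liver and 3 forestomach arrays of D0 were well above background. For liver minus forestomach the difference without mouse 5 was not called (-0.96, adjusted p = 0.102, against -1.51 with all mice and -2.09 without mouse 3), nor was it with the scanner's processed signals, where the difference was larger (-1.996, adjusted p = 0.0624). The second Pnpla3 probe, dimmer still, gave smaller differences that were not called (-0.40 for lung minus forestomach, adjusted p = 0.0922).

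Thrsp had the largest liver excess over lung of the 9 genes. The vehicle livers read 7.06, 6.70, 7.24, 7.07 and 6.75, the lungs 3.64, 1.26, 0.83, 2.53 and 2.27, and the forestomachs 2.43, 2.39, 1.80, 0.79 and 6.06. Liver was 29.0-fold above lung (adjusted p = 3.76e-08) and 19.3-fold above forestomach (log2 difference 4.27, adjusted p = 7.77e-07), and the latter was 5.17 on the log2 scale without mouse 5. Lung and forestomach each spread widely and overlapped, with a difference of -0.59 ± 0.71 (lung minus forestomach, adjusted p = 0.513).

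**Figure D1:**
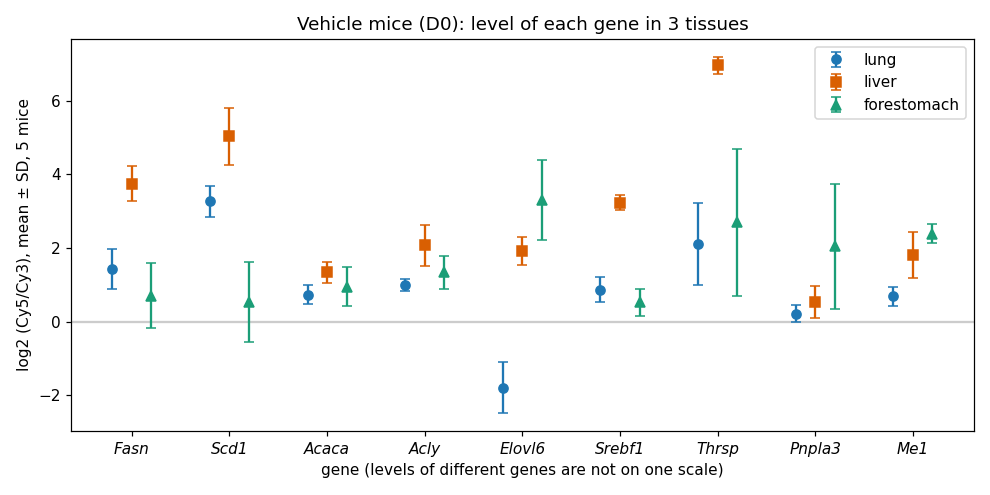
Level of each of the 9 genes in vehicle mice (y axis, log2 Cy5/Cy3, mean ± SD of 5 mice) in lung (circles), liver (squares) and forestomach (triangles), by gene (x axis). Liver is highest for 6 genes, and forestomach is highest for Elovl6 (mean 3.30), Pnpla3 (2.04) and Me1 (2.38).

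In a check made after the data were seen, 3 vehicle arrays with RNA of other cell types were left out (the lung of mouse 1 and the forestomachs of mice 2 and 5). Mouse 5 had the highest vehicle levels of Fasn (2.29) and Srebf1 (1.09) in forestomach, and mouse 1 the lowest vehicle level of Srebf1 in lung (0.31). Forestomachs with hepatocyte markers were kept. Fasn was then higher in lung by 1.18 (adjusted p = 0.00454) and Srebf1 by 0.71 (adjusted p = 0.00195), and both were called. Leaving out such extreme values itself widens the difference, so these calls lend it no support.

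A wider list of 24 genes around the pathway was read beside the members, among them genes of substrate supply (Slc25a1, Acss2, Pklr, G6pdx, Pgd), further elongation, desaturation and esterification (Elovl5, Fads1, Fads2, Scd2, Gpam, Agpat2, Lpin1, Dgat2) and regulators (Mlxipl, Nr1h3, Scap, Insig1, Insig2). In vehicle mice 18 of the 24 were called lower in lung than in liver and 6 higher, beside 19.0% and 25.4% of all probes, with a median difference of -1.82 against 0.06 over all probes. Between liver and forestomach 16 were called higher in liver and 4 lower, beside 18.2% and 21.0% of all probes. Between lung and forestomach 6 were called each way, beside 18.8% higher and 14.5% lower in lung. The next genes were picked after their values were seen. Scd2, a desaturase of the same family as Scd1, went against its relative and was 6.16 ± 0.18 higher on the log2 scale in lung than in liver. Dgat2, which makes triglyceride, was 6.11 ± 0.43 lower in lung than in liver, and Mlxipl, which encodes the carbohydrate-sensing factor ChREBP, was 4.96 ± 0.33 lower. G6pdx, a second NADPH source, was 4.93 ± 0.21 lower in liver than in forestomach, in the same direction as the Me1 difference, which was not called in the main fit.

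The second comparison asked whether BghiP changed the genes. No member was called at any dose in any tissue. The share of all probes called was also 0% in each tissue at D1, D2 and D3, so the members did not stand apart from the array. At an unadjusted p under 0.05, between 377 and 3145 probes (1.5% to 12.1%) passed per tissue and dose, among them 4 member probes. These were the main probes of Srebf1 in liver at D3 and of Scd1 in forestomach at D1, and further probes of Acaca in liver at D3 and of Me1 in forestomach at D1 (-0.40 ± 0.17, against 0.01 ± 0.16 for the main probe). Of all probes, 12.1% passed in liver at D3 and 9.37% in forestomach at D1, with 14 member probes tested in each of these tissues. With slide as a block, 0.0677% of lung probes and 0.0927% of liver probes were called at D3, against 0% of forestomach probes and 0% in every tissue at D1 and D2, again without a member.

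At D3 the members' changes lay between -0.22 and 0.21 in lung, -0.42 and 0.48 in liver, and -0.98 and 0.54 in forestomach, with medians of -0.09, -0.12 and -0.08. The median over all probes was 0.01 or less in size in each tissue. The 95% intervals differed widely in width. They were narrowest for Acly in lung (half-width 0.25), Srebf1 in liver (0.28) and Me1 in forestomach (0.34). They were widest for Thrsp in lung (1.59) and forestomach (1.88), where changes of that size cannot be told from none.

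**Figure D2:**
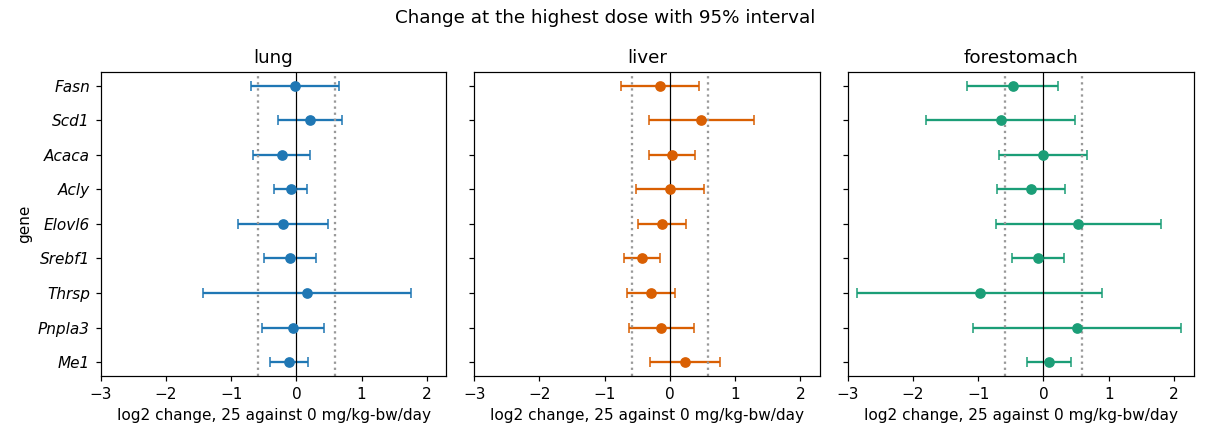
Change of each gene at 25 against 0 mg/kg-bw/day (x axis, log2, dot) with its 95% interval (bar) in 3 panels for lung, liver and forestomach, with dotted lines at 1.5-fold. All intervals cross 0 except that of Srebf1 in liver (-0.70 to -0.14), and those of Thrsp in lung and forestomach are the widest.

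Srebf1 in liver was the member nearest to a call. The livers read 3.25, 3.54, 3.47, 3.31 and 3.14 at D1, 3.34, 3.03, 3.51, 2.74 and 3.13 at D2, and 2.80, 2.99, 2.96, 2.64 and 2.65 at D3, beside the vehicle values above. All 5 mice at D3 lay below the vehicle mean of 3.23, and the groups touched, since the highest D3 mouse (2.99) was above the lowest vehicle mouse (2.96). The change at D3 was -0.42 ± 0.13 (SE, 1.34-fold lower; unadjusted p = 0.00402 and adjusted p = 0.216 by limma). With slide as a block it was -0.40 ± 0.10 (adjusted p = 0.0662). Other lists moved in these livers without a call. The hepatocyte markers were lower at D3 in 7 of 8 genes (median -0.21), and the clock genes were higher in 7 of 9 (median 0.27), against a median of -0.0004 over all probes. The clock genes were also higher in 7 of 9 at D1 and at D2 (medians 0.11 and 0.32). The hepatocyte markers were higher in 7 of 8 at D1 and lower in 7 of 8 at D2 (medians 0.11 and -0.13). Their part in the Srebf1 values was not tested.

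A slope on dose uses all 4 groups at once, and was called on its adjusted p alone (0.05 or less), with no fold threshold. Srebf1 fell by 0.0193 ± 0.0052 on the log2 scale per mg/kg-bw/day in liver, which was not called (adjusted p = 0.0892), beside 0.239% of liver probes with a called slope. With slide as a block the slope was -0.0175 ± 0.0039 and was called (adjusted p = 0.0281), beside 2.61% of liver probes (677, and between 114 and 1281 as each mouse was left out). Srebf1 was the only member called in this fit, and slide accounted for 58.6% of its variance within dose groups in liver. Leaving out each mouse in turn, the blocked slope stayed between -0.0196 and -0.0160 and its adjusted p between 0.0139 and 0.0899. It was called in 15 of 20 such fits, and the call was lost without D0 mouse 2 or any of D3 mice 16, 18, 19 and 20.

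Thrsp had a liver slope of -0.0136 ± 0.0065 (adjusted p = 0.329), or -0.0109 ± 0.0036 under the slide block (adjusted p = 0.0965), and neither was called. The livers at D3 read 6.63, 6.79, 6.99, 6.54 and 6.43, and 4 of 5 lay below the vehicle mean of 6.96. Slide accounted for 79.5% of the variance of Thrsp within dose groups in liver.

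**Figure D3:**
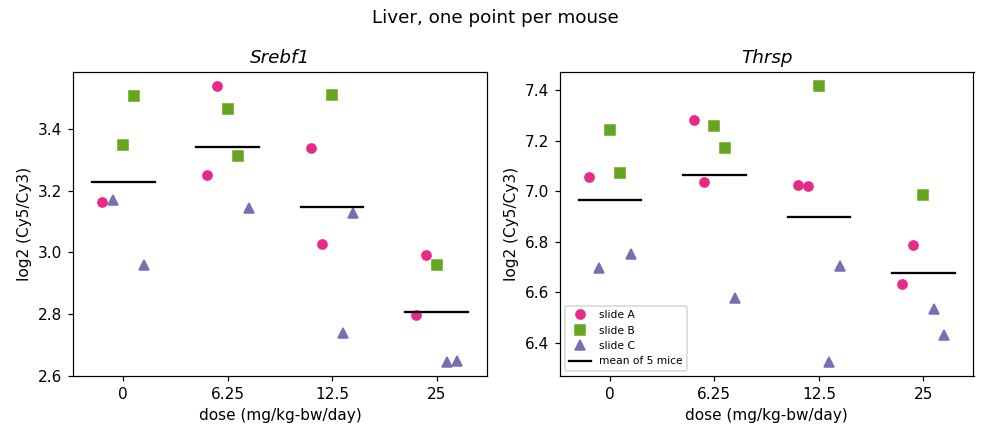
Srebf1 (left) and Thrsp (right) in liver of each mouse (y axis, log2 Cy5/Cy3) by dose (x axis, mg/kg-bw/day), with symbols for the 3 slides and lines for the means of 5 mice. The D3 mice of Srebf1 sit between 2.64 and 2.99, below the vehicle mean of 3.23, and the slides differ in both genes.

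Among the enzymes that SREBP-1 controls, none was called in liver. Fasn changed by -0.15 ± 0.28 at D3 (adjusted p = 0.87), with livers at 3.27, 4.02, 3.90, 3.68 and 3.09 that overlapped the vehicle range. Acly changed by 0.01 ± 0.24 and Elovl6 by -0.12 ± 0.17, while Scd1 stood 0.48 ± 0.38 above vehicle (adjusted p = 0.65). Probes of the same gene disagreed in sign for Acaca, where the main probe changed by 0.03 and a further one by -0.43 ± 0.17 (unadjusted p = 0.0193, adjusted p = 0.321), and for Acly, where the further probe changed by -0.33 ± 0.20.

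In lung no member had an unadjusted p under 0.05 at any dose. Slopes on dose were called for 0% of lung probes, or 0.306% with slide as a block, and for none of the members. Acaca had all 5 D3 mice below the vehicle mean (0.41, 0.59, 0.66, 0.25 and 0.58, against 0.70, 0.86, 1.01, 0.71 and 0.32), with a change of -0.22 ± 0.21 and overlapping groups. A further Acaca probe moved the other way, by 0.06.

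The largest difference of any member from vehicle, at any dose, was that of Scd1 in forestomach at D1. The D1 mice read 0.02, -1.18, -0.66, -1.91 and -1.42, against -0.24, 1.02, 0.37, -0.60 and 2.15 in vehicle mice. All 5 lay below the vehicle mean of 0.54, but the groups overlapped. The change was -1.57 ± 0.54 (unadjusted p = 0.009, adjusted p = 0.506), and it was -0.60 at D2 and -0.65 at D3. In a model of all 60 arrays the D1 change was called (adjusted p = 0.0234), along with 827 forestomach probes. This model assumes equal spread in the 3 tissues, while the SD of Scd1 over the 5 vehicle mice was 1.09 in forestomach, 0.77 in liver and 0.42 in lung.

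Of the 9 members, 8 were lower at D1 than in vehicle forestomach, with a median change of -0.61 against -0.02 over all probes. D0 mouse 5 had the highest forestomach level of every member, which raises the vehicle means used at each dose. By group medians, Fasn (0.54 at D1 against 0.41 in vehicle mice), Srebf1 (0.48 against 0.41) and Me1 (2.54 against 2.34) were higher. The remaining members were lower at D1 by group medians too. At D1 7 of the 9 fat cell markers tested were also lower (median -0.61). All 7 glandular stomach markers tested were higher (median 2.83, then 1.68 at D2 and 0.12 at D3). At D2 8 members were again lower (median -0.23), but the fat cell markers were 5 higher and 4 lower (median 0.08). At D3 the medians were -0.08 for the members and -0.75 for the fat cell markers. Neither the fat cell nor the glandular list had a call, and their part in the members' values was not tested. Elovl6 and Pnpla3 stood above vehicle at D3 in forestomach, by 0.54 ± 0.60 and 0.51 ± 0.75. As each mouse was left out, these changes ran from 0.20 to 0.82 and from 0.08 to 1.11. All 5 D3 mice of Elovl6 (3.98, 3.97, 3.99, 3.54 and 3.70) were above the vehicle mean of 3.30, inside the vehicle range. Slopes were called for 0% of forestomach probes with and without the slide block.

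**Figure D4:**
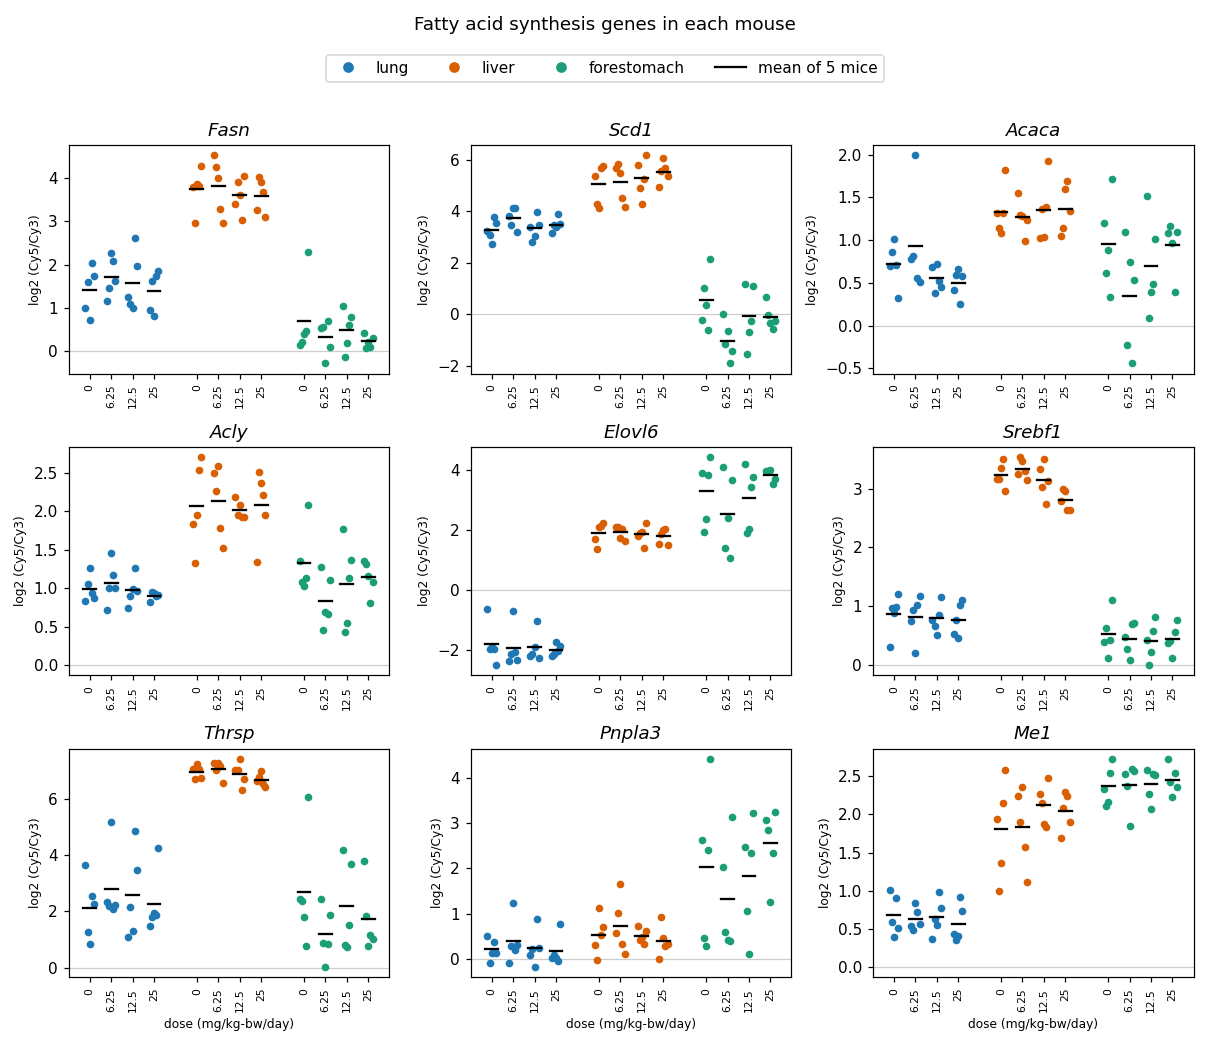
Level of each of the 9 genes (panels) in each mouse (y axis, log2 Cy5/Cy3, scaled per panel) by tissue (colour) and dose (x axis, mg/kg-bw/day), with lines for the mean of 5 mice. Liver lies apart from lung at every dose for Fasn, Scd1, Acly, Elovl6, Srebf1 and Thrsp, narrowly so for Scd1 at D1 and Acly at D0 and D1. Single mice stand out, such as Thrsp in the forestomach of D0 mouse 5 at 6.06 and in the lung of D1 mouse 8 at 5.18.

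The change at D3 was also compared between tissues, in a model of all 12 groups. No member was called, beside 0% of all probes in each of the 3 pairs of tissues. For Srebf1 the change in lung was 0.32 ± 0.25 above that in liver (unadjusted p = 0.198), and the change in liver minus that in forestomach was -0.34 ± 0.25. The lowest unadjusted p of a member was 0.0656, for Scd1, whose change in liver was 1.14 ± 0.60 above that in forestomach.

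Of the 24 pathway partners, none was called in any tissue at any dose. At D3 in lung 12 were higher and 12 lower than in vehicle mice. Of the 24, 3 had an unadjusted p under 0.05, beside 4.81% of all lung probes. All 3 were higher: Pklr (0.35 ± 0.13), Slc25a1 (0.30 ± 0.13) and Fads1 (0.22 ± 0.08), with limma adjusted p of 0.897, 0.998 and 0.897. They were also the largest changes in lung. The largest in liver were Aacs, an acetoacetate-activating enzyme (-0.61 ± 0.34), Pklr (0.31 ± 0.34) and Insig1, which holds SREBP back in the endoplasmic reticulum (-0.31 ± 0.16). In forestomach they were Pltp (-0.42 ± 0.20), Mlxipl (-0.41 ± 0.40) and Agpat2 (-0.36 ± 0.38). None of 10 genes of cholesterol synthesis and uptake, the targets of the related factor SREBP-2, and none of 10 fasting-response genes was called in liver, with median changes at D3 of -0.02 and -0.01.

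The third comparison asked which members varied together between mice of a tissue. Fasn was set against the other 8 members and against cell type or fasting lists, 31 relations in all over 20 mice each, with permutation p-values adjusted over the 31.

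In liver Fasn rose and fell with Elovl6 (r = 0.776, rho = 0.726, adjusted permutation p = 0.00108 and 0.00418), with Acly (r = 0.746, rho = 0.71, adjusted p = 0.00108 and 0.0044) and with Me1 (r = 0.674, rho = 0.692, adjusted p = 0.00319 and 0.00522). Leaving out the 2 mice farthest from the median of Fasn (mice 2 and 10) gave r of 0.715, 0.644 and 0.5, and taking out dose and slide means gave 0.806, 0.776 and 0.802. Acaca reached r = 0.48 (rho = 0.457, adjusted p = 0.045 and 0.068, of which the second does not pass), or r = 0.88 without dose and slide means. Fasn had no such relation with Srebf1 in liver (r = 0.323, rho = 0.221, adjusted p = 0.188 and 0.397). It rose with the mean of the fasting-response genes (r = 0.561, rho = 0.525, adjusted p = 0.0163 and 0.0452).

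In lung Fasn varied with Scd1 (r = 0.75, rho = 0.797, adjusted permutation p = 0.00108 and 0.00155), and r was 0.671 without mice 3 and 14. It also rose with the alveolar type 2 cell markers (r = 0.694, rho = 0.773, adjusted p = 0.00319 and 0.00186) and with the fat cell markers (r = 0.61, rho = 0.586, adjusted p = 0.00948 and 0.0263). After dose and slide means were taken out, r was 0.27 for the type 2 markers and 0.751 for the fat cell markers. The same step moved r with Acaca from 0.108 to 0.887 and with Elovl6 from 0.214 to 0.603. For Srebf1 r turned from 0.377 to -0.457, and slide accounted for 72.3% of the variance of Srebf1 within dose groups in lung.

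In forestomach many relations of Fasn rested largely on mice 5 and 11. With the fat cell markers r was 0.823 (rho = 0.501, adjusted permutation p = 0.00108 and 0.0546), and 0.475 without these mice. With Thrsp it was 0.78 and fell to 0.413, and with Acly 0.68 and fell to 0.278. Me1 kept its value (r = 0.603 with them and 0.591 without), and Srebf1 went from 0.654 to 0.515. With all 20 mice, taking out dose and slide means gave r of 0.848 for the fat cell markers, 0.81 for Thrsp and 0.631 for Acly. The same step lowered r from 0.485 to 0.244 for Pnpla3 and from 0.316 to 0.104 for Elovl6.

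Thrsp followed the fat cell markers almost mouse by mouse in lung and forestomach. This was examined after the data were seen, as 1 of 24 relations between the other 8 members and the mean of 10 fat cell genes such as Adipoq, Plin1 and Fabp4. In lung r was 0.967 (rho = 0.908, adjusted permutation p = 6e-05 and 0.00012), 0.933 without mice 8 and 14, and 0.97 without dose and slide means. In forestomach r was 0.981 (rho = 0.983, adjusted p = 6e-05 and 0.00012), 0.96 without mice 5 and 11, and 0.98 without dose and slide means.

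The 3 lungs with the most fat cell RNA were those of D1 mouse 8, D2 mouse 14 and D3 mouse 20, with marker means of 3.78, 3.35 and 3.04 and Thrsp at 5.18, 4.86 and 4.25. They belonged to 3 dose groups. Without these lungs the change of Thrsp at D3 in lung was -0.33, against 0.16 with them, and neither was called. In liver the fat cell markers stayed between 0.08 and 0.32, with 2 to 6 of the 10 well above background per array. Their mean there is in good part background signal, so r with it is no measure of fat cell RNA. There r with Thrsp was 0.599 (rho = 0.543, adjusted permutation p = 0.0117 and 0.0275), and 0.0738 without dose and slide means.

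**Figure D5:**
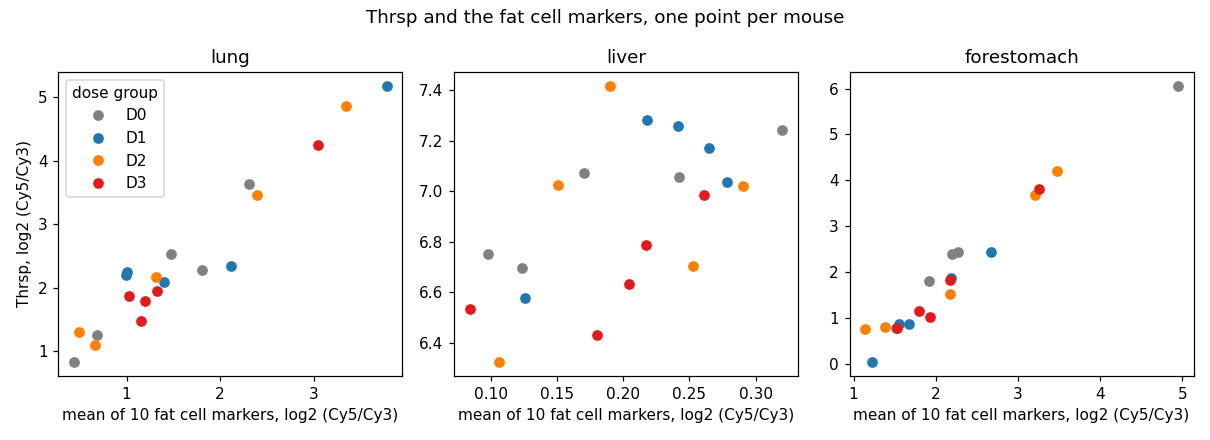
Thrsp (y axis, log2 Cy5/Cy3) against the mean of 10 fat cell markers (x axis, log2 Cy5/Cy3) in lung, liver and forestomach, 1 point per mouse, coloured by dose group, with axes scaled per panel. In lung (r = 0.967) and forestomach (r = 0.981) the mice fall close to 1 line, with mice of every dose group along it.

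The other members differed in their relation to the fat cell markers. Pnpla3 reached r = 0.834 in lung (rho = 0.602, adjusted permutation p = 6e-05 and 0.0147), 0.642 without mice 8 and 14, with only 5 lungs well above background. In forestomach its r was 0.717, or 0.411 without dose and slide means. Acly reached 0.88 (rho = 0.83, adjusted p = 6e-05 and 0.00016) and Scd1 0.814 in forestomach. Elovl6 reached 0.587 in lung, 0.19 without mice 8 and 14, and 0.792 without dose and slide means. Not all members did so. In lung r was -0.171 for Srebf1, or -0.685 without dose and slide means. For Acaca and Acly in lung r was 0.33 and 0.32, but -0.28 and -0.378 without mice 8 and 14. How much of each gene's RNA came from fat cells was not tested.

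In forestomach, slide accounted for 56.3% of the variance of Elovl6 and 80.9% of that of Pnpla3 within dose groups.

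The genes whose levels were most like the mean of the 9 members over the 20 mice were ranked in each tissue, as a description. In lung these were Mrap (r = 0.868), A530016L24Rik (0.867), Plin1 (0.844), Adig (0.824) and Retn (0.819). Plin1, a lipid droplet coat protein, and Retn, the hormone resistin, are on the list of fat cell markers used above, and the other genes were not sorted by cell type. In forestomach they were Adig (0.962), Dusp22 (0.952), Fam219a (0.935), Nrg4 (0.927) and Ripor3 (0.922). In liver they were Elovl2, an elongase of polyunsaturated fatty acids (0.777), Olfr170 (0.772), Sucnr1 (0.770), Hgd (0.767) and Pglyrp2 (0.762).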

How the data were processed

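The deposited scanner files give each spot's median and background signal intensity, a background-subtracted, dye-normalized processed intensity and quality flags, from Feature Extraction. The deposited log2 ratios were normalized by the authors with LOWESS on median signals without background subtraction. Here Cy5 and Cy3 median intensities were loess-normalized within each array. Spots of a probe were averaged, and control spots (3671 of 62976) and outlier-flagged values (0.460%) were left out. Per array, r between these ratios and the deposited log2 ratios was 0.992 to 0.999. SystematicName accessions were named through RefSeq tables (26413 of 55681 probes, 47.4%).

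Groups came from the sample titles, and a mouse number marks 1 animal in 3 tissues. Each tissue was fitted alone with limma 3.58.1 in R 4.3.3 over its 20 arrays, on probes whose Cy5 signal stood well above background on 5 or more arrays (31022 in lung, 25893 in liver and 25070 in forestomach). Tissue contrasts used all 60 arrays. P-values were two-sided and adjusted by Benjamini-Hochberg over all tested probes, with calls at 0.05 and 1.5-fold, the study's thresholds, or for slopes at 0.05 alone (its MAANOVA was replaced by limma). Relations used permutation tests with 100000 resamples. The number of arrays limits the precision. The fit was tested on simulated data.

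The same mouse deviated together between tissues only weakly (median r over mice 0.05 for lung and liver, 0.21 for lung and forestomach, 0.00 for liver and forestomach). The 9 members were named by their brightest probe, partners by the 3 largest D3 changes and like genes by the 5 highest correlations. The members and lists were chosen with earlier results of these data known. Alternatives covered background correction, processed and deposited values, between-array scaling, filters, variance shrinkage, probe averaging, slide and mouse blocks, residual shuffling and leaving out each mouse. Added after seeing the data were the relations of the other 8 members with the fat cell markers, fits without doubted arrays, and blocked liver slopes without each mouse.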

Additional observations from a re-analysis of the deposited data

Results flagged for a closer look

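Among 108 sets of 5 mice (9 genes in 12 groups), 7 had 1 mouse whose gap to the nearest other mouse exceeded 0.71 of the group's range, Dixon's limit at 95%. Chance alone would give about 5.4. In the lung of D1 mouse 8, Thrsp (5.18 against 2.09 to 2.34 in the others; ratio 0.917), Elovl6 (-0.70 against -2.38 to -2.06; 0.808) and Acaca (1.99 against 0.51 to 0.82; 0.793) were all high. In the lung of D3 mouse 20, Thrsp (4.25 against 1.48 to 1.95; 0.829) and Pnpla3 (0.77 against -0.05 to 0.09; 0.826) were high. These lungs also had fat cell markers of 3.78 (mouse 8) and 3.04 (mouse 20), against a median of 1.32 over the 20 lungs, and that of mouse 20 held the hepatocyte markers. In forestomach, Fasn was high in D0 mouse 5 (2.29 against 0.15 to 0.47; 0.853), which had the highest fat cell markers (4.95), and Acaca was low in D3 mouse 19 (0.39 against 0.97 to 1.17; 0.741). The part of other cell types in these values was not tested.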

How the results depend on the processing

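No member was called at any dose in any alternative except Scd1 in forestomach at D1 in the model of all 60 arrays (1 member, 827 probes). In that model 1 liver probe was called at D1 and 5 at D3. The slide block called 21 lung and 24 liver probes at D3, and slopes for 95 lung and 677 liver probes (114 to 1281 as each mouse was left out), 1 of them a member (Srebf1). Residual shuffling called 19 liver probes at D3, and the processed signals 1 in lung and 5 in liver. Called liver slopes numbered 117 with processed signals, 171 on probes bright on all arrays, 141 with a variance trend, and 0 to 239 as each mouse was left out. Leaving out each mouse gave 0 to 29 liver probes at D3 and 0 to 1 for the D3 changes of lung or liver against forestomach. Without 3 doubted arrays, chosen after seeing the data, 8 probes were called for liver against forestomach.

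Members called in vehicle tissues numbered 7 to 8 (lung and liver), 3 to 6 (lung and forestomach) and 6 to 8 (liver and forestomach) over all alternatives. The replicate block, pairing tissues of a mouse, gave 8, 4 and 7, and changed no call. Relations of Fasn past the threshold numbered 22 by r and 13 by rho. Its r was -0.457 with Srebf1 in lung after dose and slide means, and -0.142 with Acaca in forestomach without 2 mice.

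Small, uncalled values changed sign. Fasn in lung at D3 was 0.000524 with normexp, Thrsp in lung -0.13 and Me1 in forestomach -0.0019 with processed signals. Averaging probes gave 0.0812 for Pnpla3 in lung, -0.11 for Acaca and -0.16 for Acly in liver. At D3 Thrsp was -0.33 without the lungs of mice 8, 14 and 20, and without that of mouse 1 Elovl6 was 0.0870 and Pnpla3 0.0236. Without forestomachs of mice 5 and 11, Acaca was 0.18 and Srebf1 0.0616, and without 3 arrays Thrsp for lung minus forestomach was 0.0539. As each mouse was left out, D3 changes ran in lung from -0.19 to 0.14 (Fasn), -0.38 to 0.0870 (Elovl6), -0.20 to 0.0236 (Pnpla3) and -0.33 to 0.55 (Thrsp). In liver they ran from -0.0501 to 0.15 (Acaca), -0.18 to 0.19 (Acly) and -0.27 to 0.0198 (Pnpla3), and in forestomach from -0.16 to 0.18 (Acaca) and -0.19 to 0.0616 (Srebf1). Vehicle lung minus forestomach ran from -0.38 to 0.0638 (Acaca) and -1.17 to 0.22 (Thrsp). The causes were not tested. Pnpla3 was well above background on 5 to 14 of 20 arrays per tissue.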
